A study of Mus musculus with 12 samples.

Results

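Small heat shock proteins are a family of low-mass chaperones, and 6 of their genes, Hspb1, Hspb8, Hspb6, Hspb7, Cryab and Hspb2, were followed in mouse dorsal root ganglia after nerve injury. The genes were picked by symbol, with earlier results of these data known, from count files that list 23238 distinct symbols. All 6 passed the filter on low counts. The study compared male and female mice after injury of a peripheral nerve. Ganglia of lumbar levels 3 to 5 came from C57BL/6 mice, a common inbred laboratory strain, aged 8 weeks after birth, and gave 4 groups of 3 libraries: females after sciatic nerve injury (SNI), females after a sham operation, males after SNI and males after a sham operation. No transgene or agent is named for any group. The sources used here do not give the time after the operation, the kind of lesion or the number of mice behind a library, so p-values measure only the spread between libraries, which may be technical. Levels are CPM, counts scaled to a common library total after TMM adjustment, changes are log2 SNI over sham with the standard error of the fit (SE) after ±, and a gene was called when its adjusted p lay below 0.05.

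Small heat shock proteins share the alpha-crystallin domain, assemble into oligomers and hold unfolding proteins without using ATP, after which HSP70 and its co-chaperones refold the client or autophagy removes it. Several members also bind actin or intermediate filaments. Hspb1 is known for protecting neurons and for its regulation in injured sensory and motor neurons, and Hspb8 works with Bag3 in selective autophagy. Both are mutated in inherited human motor neuropathies. Hspb2, Hspb6 and Hspb7 are known best from heart and skeletal muscle, and Cryab from lens, muscle and glia.

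Heat shock factors bind repeats of the unit NGAAN set in alternating orientation, and promoters of small heat shock protein genes are known to carry them. Promoter windows of 300 bases, from 250 bases before to 50 bases after the annotated start, were taken from RefSeq on GRCm38.p6 and matched 4 of the 6 genes with 5 promoters. A pair of units set head to head, GAANNTTC, was found in 7.86% of all 32851 mouse promoter windows, a pair set tail to tail, TTCNNGAA, in 8.52%, and either in 15.1%. Each of these 2 patterns reads the same on both strands, and they were searched separately, overlapping matches included. The Hspb1 window held GAANNTTC at 2 places, 117 and 97 bases before the start. The Hspb8 window held it 3 bases after the start, and the window of the second of 2 Hspb6 promoters held it 120 bases before the start. The match was GAAGTTTC in all 3 genes, and Hspb1 had GAACCTTC as its other match. The Hspb7 window and the first Hspb6 window held neither pair. No window of these 4 genes held the AP-1 pattern TGANTCA, present in 7.81% of windows, or the STAT pattern TTCNNNGAA, present in 8.3%, with both strands searched. The 3 windows with a match are printed because they belong to a gene that was called and to others that were not, with the matches in capitals and the rest in lower case, 5′ to 3′ on the strand of the gene. The Hspb1 window is chr5:135887669-135887968 on the plus strand, the Hspb8 window chr5:116422815-116423114 on the minus strand and the Hspb6 window chr7:30553051-30553350 on the plus strand. A match describes the letters only and says nothing on binding.
Hspb1: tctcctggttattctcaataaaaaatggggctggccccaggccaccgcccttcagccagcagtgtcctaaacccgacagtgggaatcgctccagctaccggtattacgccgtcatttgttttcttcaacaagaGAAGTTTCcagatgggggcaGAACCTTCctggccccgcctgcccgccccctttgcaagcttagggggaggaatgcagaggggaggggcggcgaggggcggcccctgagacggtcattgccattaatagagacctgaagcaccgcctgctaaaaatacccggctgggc
Hspb8: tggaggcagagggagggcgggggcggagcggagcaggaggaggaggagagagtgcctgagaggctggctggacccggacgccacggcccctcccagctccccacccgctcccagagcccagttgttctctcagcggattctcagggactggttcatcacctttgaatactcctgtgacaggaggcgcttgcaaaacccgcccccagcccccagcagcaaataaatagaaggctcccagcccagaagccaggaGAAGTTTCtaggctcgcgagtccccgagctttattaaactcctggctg
Hspb6: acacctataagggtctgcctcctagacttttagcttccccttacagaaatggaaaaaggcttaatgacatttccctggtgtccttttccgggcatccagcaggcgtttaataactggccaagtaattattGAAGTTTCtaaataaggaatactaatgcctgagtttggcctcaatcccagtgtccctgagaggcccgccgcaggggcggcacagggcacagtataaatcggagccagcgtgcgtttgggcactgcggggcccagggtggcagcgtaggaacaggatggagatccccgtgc

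Total counts were 12476606 to 15520746 per library. Atf3, a transcription factor induced by axon injury, had 275 to 361 CPM in SNI libraries and 43.6 to 56.7 CPM in sham libraries, and Xist, expressed from the inactive X chromosome, had 0 to 0.154 CPM in males and 133 to 171 CPM in females, so each library matched its labels on these genes. The neuronal genes Uchl1 (4233 to 7216 CPM) and Prph (2246 to 3021 CPM) were abundant in every library of this sensory tissue. In all, 3 libraries stood apart, and results that rest on them are given with and without them. Male SNI replicate 2 and Female sham replicate 2 lay at 99.9 and 47.5 on the first principal component, against -32.8 to 0.963 for the other 10 libraries. Male SNI replicate 1 had a summed level of 14 skeletal muscle markers of 1886 CPM, against 18.9 to 92.8 CPM in the other 11. Its Acta1, skeletal muscle actin, was at 445 CPM, against 1.95 to 15.4 CPM elsewhere.

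Hspb1, the stress-induced chaperone of actin and neurofilaments, was the member with the highest level. It was the only 1 of the 6 genes called higher after SNI, in the average over the sexes, in females and in males. It stood at 2894, 2365 and 2624 CPM in Female SNI libraries, against 1269, 1779 and 1441 CPM in Female sham libraries. In males it stood at 2715, 3764 and 2199 CPM after SNI, against 1337, 1367 and 1065 CPM after sham. Every SNI library lay above every sham library, which holds in this direction for 2.79% of the 15036 tested genes. The group means were 2628 ± 264 CPM in Female SNI and 1496 ± 259 CPM in Female sham ganglia, and 2893 ± 797 CPM in Male SNI and 1256 ± 167 CPM in Male sham ganglia (SD, n = 3 each). Averaged over the sexes, Hspb1 rose by 1.01 ± 0.13 (SE) on the log2 scale (95% interval 0.72 to 1.30), a fold of 2.01, with an adjusted p of 0.00035 in edgeR's quasi-likelihood test and Benjamini-Hochberg adjustment. By p it ranked 125 among 15036 genes, of which 6.52% were called and 3.78% were called higher. More cells of a type and more RNA per cell cannot be told apart in such bulk samples.

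In females Hspb1 rose by 0.81 ± 0.19 (95% interval 0.41 to 1.22, adjusted p = 0.0336), where 2.89% of genes were called and 1.60% called higher. In males it rose by 1.20 ± 0.19 (95% interval 0.80 to 1.61, adjusted p = 0.00365), where 2.13% were called and 1.65% called higher. The groups did not overlap within either sex, which is so in the higher direction for 13.1% of genes in females and 9.09% in males. The call averaged over the sexes held in all 22 alternatives run, with a change of 0.89 to 1.09. The female call was lost when any of the 3 Female SNI libraries, Female sham 1 or 3, or Male sham 1 or 2 was left out, where the adjusted p was 0.0525 to 0.151 and the change 0.70 to 0.88. The male call was lost when male libraries were fitted alone (1.21, adjusted p = 0.0667), and without the 3 libraries that stood apart the change was 0.96 in females and 0.82 in males, both called.

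**Figure D1:**
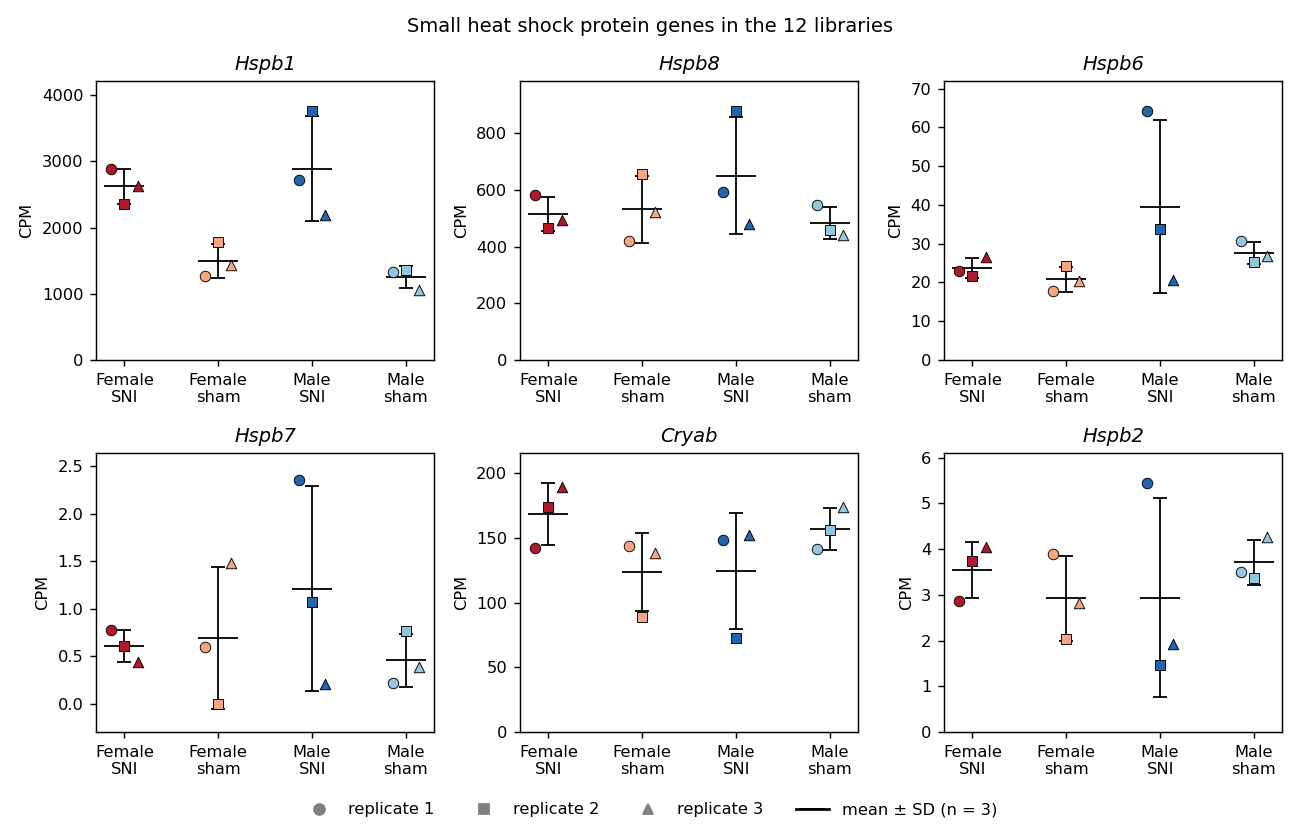
CPM of the 6 small heat shock protein genes in each of the 12 libraries, 1 panel a gene with its own linear axis; symbols are libraries, lines the mean and bars the SD of 3. Hspb1 is higher in all 6 SNI libraries (2199 to 3764 CPM) than in all 6 sham libraries (1065 to 1779 CPM), and the groups overlap in the other 5 genes when the sexes are pooled.

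Hspb1 lies on chromosome 5 at 135887919 to 135889563, plus strand (GRCm38, the build also called mm10), and shares no exon with another annotated gene. An annotated processed pseudogene, Hsp25-ps1, on chromosome 13 at 45078498 to 45079127 on the minus strand, matches the Hspb1 transcript over its whole 630 bases with 99.4% identity. The sources used here do not say how the counting divided reads between the 2, so the Hspb1 count is uncertain to that extent. The lists of other cell types were read beside the Hspb1 change. Macrophage markers moved with it: their sum over 14 genes was 291 to 480 CPM in SNI libraries and 131 to 204 CPM in sham libraries, with none at 0 in any library. The part of these cells in the Hspb1 change was not tested. Sums of 12 pan-neuronal genes were 18750 to 24084 CPM after SNI and 19675 to 23531 CPM after sham, and those of 10 satellite glia markers 6289 to 9943 CPM and 5595 to 7133 CPM, so both overlapped between the conditions. These sums follow their most abundant genes. Apoe averaged 4860 CPM in the glia list, and Uchl1 and Nefl averaged 5134.5 and 4906 CPM in the neuronal list.

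Closest to the Hspb1 profile were 3 of 9023 tested genes with at least 10 CPM on average, by the root mean square difference of log2 CPM centred on each gene's mean over the 12 libraries. They were Rhoc, a small GTPase, at 0.11, Cacna2d1, the auxiliary calcium channel subunit that gabapentin binds, at 0.14, and Tubb2b, a beta tubulin, at 0.14, where Hspb1 itself varied by 0.55 about its mean. Rhoc averaged 291 ± 40.4 CPM in Female SNI and 164 ± 22.3 CPM in Female sham ganglia, and 308 ± 101 CPM in Male SNI and 122 ± 6.94 CPM in Male sham ganglia. The injury changes were 1.08 ± 0.14 for Rhoc, 1.14 ± 0.13 for Cacna2d1 and 1.02 ± 0.13 for Tubb2b, with adjusted p of 0.000261, 0.000108 and 0.000307 by edgeR. These genes were picked for a profile that holds the injury change, so their calls are a description.

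Hspb8, the partner of Bag3, was the second most abundant member and was not called. It stood at 583, 466 and 495 CPM in Female SNI libraries, against 420, 656 and 521 CPM in Female sham libraries. In males it stood at 592, 879 and 481 CPM after SNI, against 549, 460 and 441 CPM after sham. The conditions overlapped in each sex, with the highest values in the libraries Male SNI replicate 2 and Female sham replicate 2, which both stood apart. The change averaged over the sexes was 0.19 ± 0.15 (95% interval -0.12 to 0.51, adjusted p = 0.565), so that a change as large as that of Hspb1 lay outside the interval. It was -0.05 ± 0.21 in females (-0.49 to 0.40) and 0.43 ± 0.21 in males (-0.02 to 0.87, adjusted p = 0.366). Without both of these libraries the averaged change was 0.15 ± 0.09, with 0.13 in females and 0.16 in males. Hspb8 lies on chromosome 5 at 116408491 to 116422864, minus strand. Among the closest profiles were those of Fam32a (0.06) and Tssc4 (0.07), against 0.28 for Hspb8 about its own mean, and their injury changes of 0.16 and 0.21 were not called either. Tssc4 shares 220 exonic bases with Trpm5 and is uncertain.

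**Figure D2:**
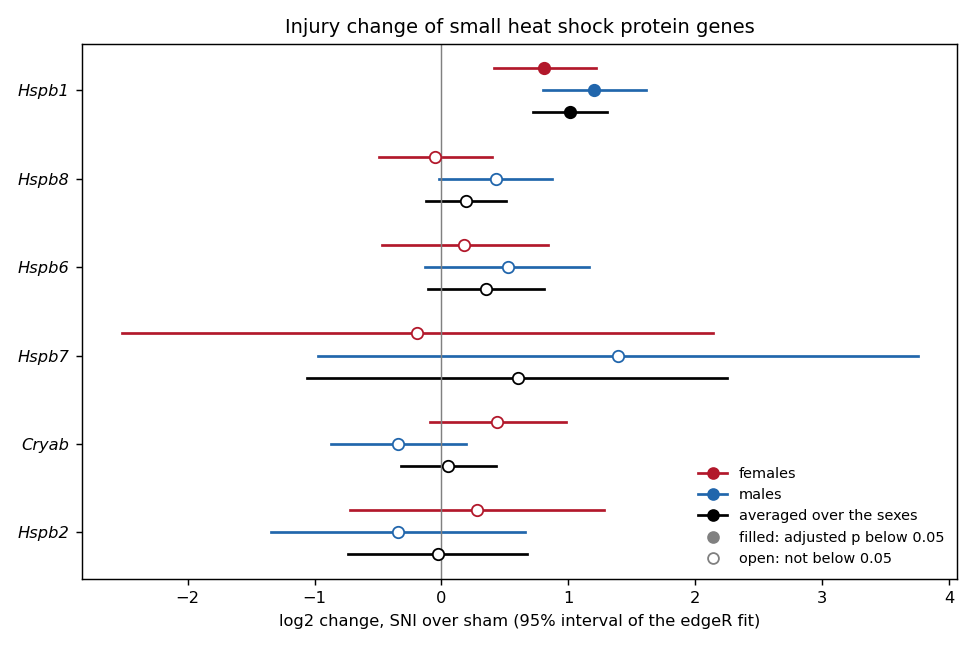
Log2 change of each member, SNI over sham, averaged over the sexes and within females and males, with the 95% interval of the edgeR fit; filled points have an adjusted p below 0.05. The 3 intervals of Hspb1 lie above 0 (lowest bound 0.41), and those of the other 5 genes include 0.

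Because Hspb1 and Hspb8 shifted together in single libraries, their counts were also set against each other within each library, a ratio chosen after the values were seen and given with no test. Hspb1 counts were 4.97, 5.07 and 5.30 times those of Hspb8 in Female SNI libraries, against 3.02, 2.71 and 2.77 times in Female sham libraries. In males the ratio was 4.59, 4.28 and 4.57 after SNI, against 2.44, 2.97 and 2.41 after sham. The SD of 0.171 in Female SNI and 0.165 in Female sham, and of 0.174 in Male SNI and 0.316 in Male sham, was small beside the gap between conditions, and the libraries that stood apart lay on the side of the gap of their own group. Hspb1 made up 77.0% to 79.4% of the counts of the 6 members in SNI libraries and 62.2% to 69.8% in sham libraries. Hspb8 made up 14.8% to 18.5% in SNI libraries and 22.6% to 26.6% in sham libraries. Hspb1 is most of this sum, so its rise alone lowers the Hspb8 share. Hspb8 itself averaged 583 ± 155 CPM after SNI and 508 ± 87.3 CPM after sham (SD, n = 6 each). The Hspb1 to Uchl1 ratio, which also holds the Hspb1 change, was 0.483 to 0.660 after SNI and 0.232 to 0.293 after sham, with no overlap. Against Cryab, in contrast, the Hspb1 ratio was 13.6 to 20.4 in Female SNI and 8.83 to 20.04 in Female sham libraries, which overlapped. It was 18.4, 52.0 and 14.5 in Male SNI libraries, against 9.48, 8.77 and 6.14 in Male sham libraries.

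**Figure D3:**
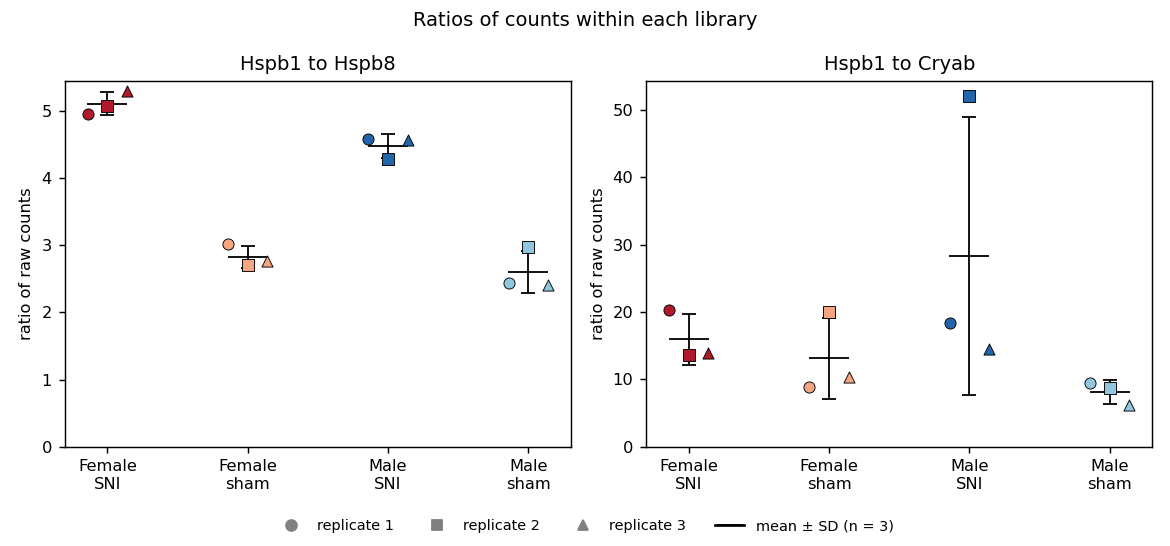
Ratio of raw counts within each library, Hspb1 to Hspb8 on the left and Hspb1 to Cryab on the right, linear axes from 0, with the mean and SD of 3 libraries. The Hspb1 to Hspb8 ratio is 4.28 to 5.30 in SNI and 2.41 to 3.02 in sham libraries, while the Hspb1 to Cryab ratio reaches 52.0 in Male SNI replicate 2 and 20.04 in Female sham replicate 2.

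Cryab, the alpha-B crystallin chaperone of lens, muscle and glia, was the third most abundant member, and its differences ran in opposite directions in the sexes without passing the test. It stood at 142, 174 and 189 CPM in Female SNI libraries, against 144, 88.8 and 139 CPM in Female sham libraries. In males it stood at 148, 72.4 and 152 CPM after SNI, against 141, 156 and 173 CPM after sham. The lowest libraries were Male SNI replicate 2 and Female sham replicate 2, and the conditions overlapped in each sex. The change was 0.44 ± 0.25 in females (95% interval -0.09 to 0.98, adjusted p = 0.445) and -0.34 ± 0.25 in males (-0.87 to 0.19, adjusted p = 0.584). Averaged over the sexes it was 0.05 ± 0.17 (-0.32 to 0.43, adjusted p = 0.931). The male change minus the female change was -0.78 ± 0.35 (95% interval -1.53 to -0.03), an interval without 0, but the adjusted p in edgeR was 0.647. That difference was -0.51 without Male SNI replicate 2, -0.59 without Female sham replicate 2 and -0.31 without both. The closest profiles were those of Agps (0.10), Klf9 (0.11) and Ccdc73 (0.12), against 0.38 for Cryab about its own mean, with injury changes of -0.01 to 0.11 that were not called. Ccdc73 shares 82 exonic bases with Eif3m and is uncertain.

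Hspb2, a muscle partner of Hspb3 that also binds the myotonic dystrophy kinase, was low. It stood at 2.86, 3.74 and 4.04 CPM in Female SNI libraries, against 3.90, 2.04 and 2.83 CPM in Female sham libraries. In males it stood at 5.45, 1.46 and 1.92 CPM after SNI, against 3.49, 3.37 and 4.27 CPM after sham, with the highest value in the library rich in muscle markers. The averaged change was -0.03 ± 0.33 (95% interval -0.74 to 0.67, adjusted p = 0.984), 0.28 ± 0.47 in females and -0.34 ± 0.47 in males. Without Male SNI replicate 1 the male change was -1.13 (adjusted p = 0.249). Hspb2 lies on chromosome 9 at 50751078 to 50752354 on the minus strand, and Cryab at 50751325 to 50756636 on the plus strand. The start of each lies within the span of the other. Their exons share 252 bases, from 50751325 to 50751576, at the 5′ end of Cryab and toward the 3′ end of Hspb2. The sources used here do not say whether counting used strand, so reads of the 2 genes there cannot be told apart, which matters more for Hspb2, at a mean of 3.28 CPM, than for Cryab, at 143 CPM. The closest profiles to Hspb2 were Col3a1 (0.27), Gm12669 (0.28) and Flywch2 (0.28), against 0.50 for Hspb2, with injury changes of -0.24 to 0.00.

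Hspb6, a smooth and striated muscle chaperone that binds 14-3-3 proteins when phosphorylated, was highest in the library rich in muscle markers. It stood at 23.0, 21.6 and 26.4 CPM in Female SNI libraries, against 17.8, 24.3 and 20.4 CPM in Female sham libraries. In males it stood at 64.2, 33.9 and 20.6 CPM after SNI, against 30.8, 25.3 and 26.9 CPM after sham. The conditions overlapped in each sex, and Male SNI replicate 1 had the highest value of the 12 libraries. The averaged change was 0.35 ± 0.21 (95% interval -0.11 to 0.81, adjusted p = 0.442), with 0.18 ± 0.30 in females and 0.52 ± 0.30 in males (adjusted p = 0.474). Without Male SNI replicate 1 the male change was -0.02 ± 0.23 and the averaged change 0.08 ± 0.15. Muscle markers moved with the Hspb6 value of that library, and their part in it was not tested. Hspb6 lies on chromosome 7 at 30552178 to 30555443, plus strand. It shares 122 exonic bases with Proser3, 77 with Gm38670, a miRNA gene on the same strand, and 3 with Lin37. Its closest profiles were Rom1 (0.26), Tpm1, a tropomyosin, (0.27) and Tmed1 (0.28), against 0.46 for Hspb6, with injury changes of -0.03 to 0.11.

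Hspb7, a heart and skeletal muscle member that binds filamin, was close to the limit of detection. It had 12, 9 and 6 counts in Female SNI libraries, against 8, 0 and 22 counts in Female sham libraries. In males it had 29, 14 and 3 counts after SNI, against 3, 10 and 6 counts after sham. The value of 29 counts (2.36 CPM) again belongs to Male SNI replicate 1, and the conditions overlapped. The averaged change was 0.60 ± 0.77 (95% interval -1.06 to 2.25, adjusted p = 0.772), -0.19 ± 1.08 in females and 1.39 ± 1.1 in males. Without Male SNI replicate 1 the male change was 0.47. At this depth only changes of several fold could have been seen. Hspb7 lies on chromosome 4 at 141420779 to 141425311, plus strand. The closest profiles were Rabep2 (0.76), H19 (0.80) and Atp2a1 (0.82), barely closer than the 1.05 of Hspb7 about its own mean. Rabep2 and Atp2a1, the calcium pump of fast muscle, share 763 exonic bases on opposite strands.

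**Figure D4:**
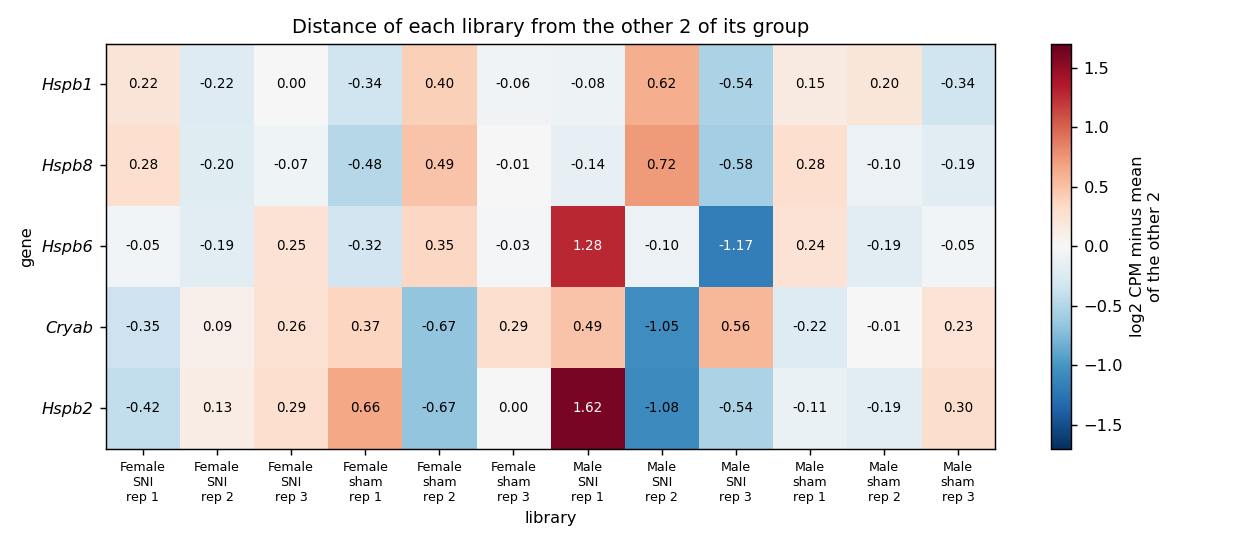
Distance in log2 CPM of each library (columns) from the mean of the other 2 libraries of its group, for the 5 members with more than 1 CPM in each library (rows), red above and blue below. Male SNI replicate 2 is higher in Hspb1 (0.62) and Hspb8 (0.72) and lower in Cryab (-1.05) and Hspb2 (-1.08), Female sham replicate 2 shows the same signs, and Male SNI replicate 1 is higher in Hspb6 (1.28) and Hspb2 (1.62).

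The members thus split in the libraries that stood apart. Male SNI replicate 2 lay above the other 2 of its group by 0.62 in Hspb1 and 0.72 in Hspb8, and below them by 1.05 in Cryab and 1.08 in Hspb2 on the log2 scale. Female sham replicate 2 had the same 4 signs, at 0.40 and 0.49 for Hspb1 and Hspb8 and -0.67 for both Cryab and Hspb2. Base composition of transcripts moved with these and other libraries, over 14464 genes with a transcript. The median distance of Male SNI replicate 2 was -0.20 in the fifth of genes with the lowest GC content (up to 43.9%) and 0.23 in the fifth with the highest (from 55.6%), and in Female sham replicate 2 these medians were -0.06 and 0.08. They ran the other way in Male SNI replicate 3, at 0.14 and -0.20, and in Female sham replicate 1, at 0.08 and -0.10. In the other 8 libraries they were -0.03 to 0.08 and -0.06 to 0.07. Each distance is taken from the other 2 libraries of the group, so the libraries of a group enter the values of each other. Among the members, GC content was 61.7% in Hspb1 and 53.0% in Hspb8, which were higher in Male SNI replicate 2, and 59.6% in Hspb2 and 54.4% in Cryab, which were lower. The part of base composition in the member values was not tested.

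Levels differ widely between the members. Per kilobase of the longest transcript, the mean CPM was 2968 after SNI and 1480 after sham for Hspb1, 321 and 280 for Hspb8, and 131 and 126 for Cryab. It was 16.0 after SNI and 12.3 after sham for Hspb6, 4.2 and 4.29 for Hspb2, and 0.329 and 0.208 for Hspb7. The labels' protocols name a QuantSeq 3′ kit, a kind that counts transcript ends and not lengths, beside a fragmentation step, so both scales are given, and the order of the 6 genes is the same on both scales. In CPM each neighbouring pair in this order was separate over all 12 libraries except Hspb2 and Hspb7, whose ranges of 1.46 to 5.45 CPM and 0 to 2.36 CPM overlapped.

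Another 5 genes carry the name of the family or its domain, and 1 of them passed the filter. Hspb11, which despite its symbol is an intraflagellar transport protein, had 124, 159 and 98 counts in Female SNI libraries, against 172, 40 and 107 counts in Female sham libraries. In males it had 101, 5 and 171 counts after SNI, against 177, 174 and 170 counts after sham. The lowest 2 values belong to the libraries Male SNI replicate 2 and Female sham replicate 2, and the averaged change of -0.35 ± 0.49 was not called (adjusted p = 0.792). Hspb3, the muscle partner of Hspb2, had at most 10 counts in a library. Odf1, a sperm tail protein, had 3 counts in Male SNI replicate 1 and 0 elsewhere. Cryaa, the lens alpha-A crystallin, and Hspb9, a testis gene, had no count in any library, where 3 counts in 1 library correspond to 0.193 to 0.240 CPM.

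The sexes were compared for the same 6 genes. No member was called for the difference of the injury changes, male minus female, where edgeR, DESeq2 and limma-voom called 0% of all genes and 1100 of 15036 had an unadjusted p below 0.05. For Hspb1 this difference was 0.39 ± 0.26 (95% interval -0.18 to 0.96, adjusted p = 0.673), so that an equal rise and a male rise larger by 0.96 on the log2 scale both lie within the interval. It was 0.15 without Male SNI replicate 2 and 0.02 without both libraries apart on the first component. For Hspb8 it was 0.48 ± 0.29, and 0.03 without both. In sham ganglia males differed from females by -0.25 ± 0.19 for Hspb1, 0.41 ± 0.30 for Hspb6 and 0.34 ± 0.25 for Cryab. No member was called in this comparison, in which 0.0399% of genes were, 688 of 15036 had an unadjusted p below 0.05, and DESeq2 and limma-voom called 14 and 9 genes, none of them a member.

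Of 69 tested genes in 6 lists of the chaperone network, 0 were called higher and 1 lower for injury averaged over the sexes, where 3.78% of all genes were called higher and 6.52% in either direction. Their median change was 0.01 and their range from -0.57 (Synpo2) to 0.50 (Dnajb5), beside a median of 0.003 over all genes. At an unadjusted p below 0.05, 2 were higher and 2 lower, where 18.4% of all genes passed. DESeq2 called 0 higher and 1 lower, and 9.21% of all genes, and limma-voom 2 higher and 3 lower, and 15.1% of all genes. Without both libraries apart on the first component 3 were called higher and 3 lower, where 12.1% of all genes were, and without Male SNI replicate 2 alone 3 higher and 4 lower, where 11.5% were. Without both, the higher genes were Hspa2 (0.52), Dnajc7 (0.25) and Cct4 (0.28) and the lower ones Hspa12a (-0.22), Dnajb14 (-0.44) and Fkbp4 (-0.28), named after their values were seen, where Hspb1 stood at 0.97.

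**Figure D5:**
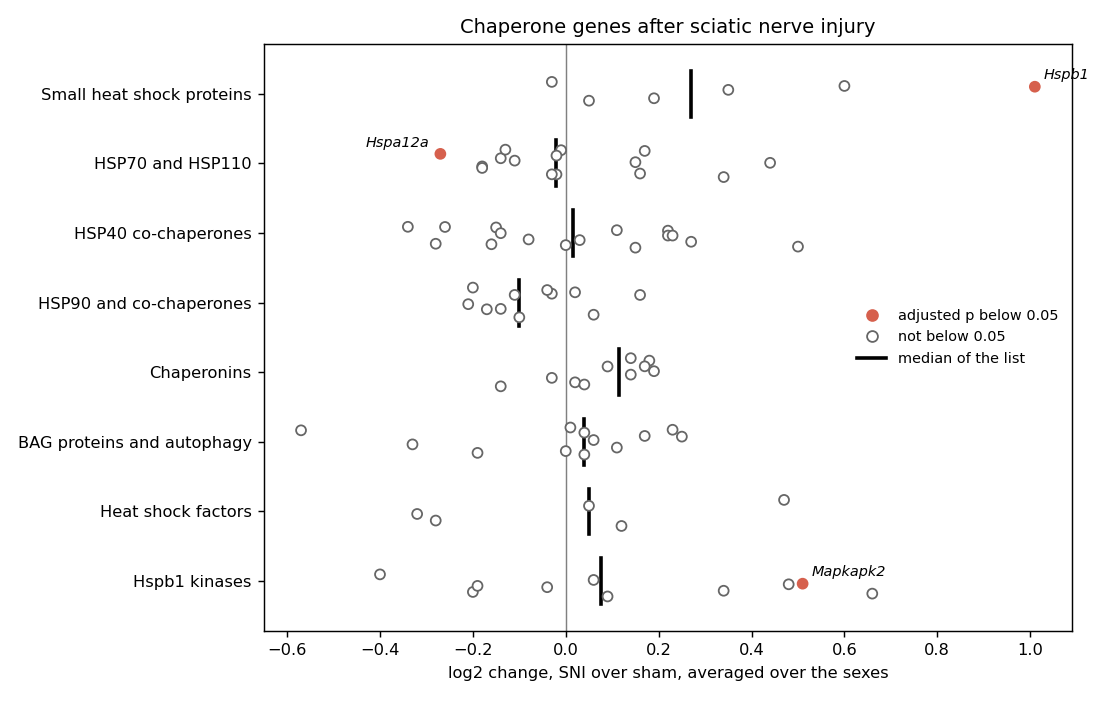
Log2 change, SNI over sham averaged over the sexes, of every tested gene (points). Genes are those of the small heat shock protein family, 6 chaperone lists and the list of Hspb1 kinases, which also holds p38 kinases. Bars are list medians and filled points have an adjusted p below 0.05. Hspb1 (1.01) lies to the right of every gene of the 6 chaperone lists, whose highest is at 0.50.

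The HSP70 and HSP110 chaperones, the ATP-driven refolding machines to which small heat shock proteins pass clients, had a median of -0.02 over 15 genes, with 0 called higher and 1 lower. The called gene was Hspa12a, a distant HSP70 relative, at 257 ± 12.9 CPM in Female SNI and 294 ± 15.8 CPM in Female sham ganglia, and 252 ± 14.5 CPM in Male SNI and 321 ± 15.8 CPM in Male sham ganglia (SD, n = 3 each). Its log2 change was -0.27 ± 0.07 (adjusted p = 0.0425), and it was called in 9 of 23 fits, the call being lost with the replicate block, with no filter, without the 3 libraries that stood apart, and in each fit that left out 1 library except that without Male SNI replicate 2. Hspa8, the constitutive HSP70 and the most abundant of the list, was at -0.02 ± 0.08. The heat-inducible copies Hspa1a and Hspa1b, chosen after their values were seen and nearly identical in sequence, averaged 4.28 to 6.53 CPM in the 4 groups, with changes of 0.34 ± 0.21 and 0.15 ± 0.34 that were not called. The HSP40 co-chaperones, which feed clients to HSP70, had a median of 0.01 over 16 genes with none called, and their most abundant member Dnaja1 was at -0.08 ± 0.11.

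The HSP90 chaperones and co-chaperones had a median of -0.10 over 11 genes, and Hsp90ab1, the constitutive cytosolic form, was at -0.10 ± 0.09. The chaperonins, the folding chambers of cytosol and mitochondria, had a median of 0.12 over 10 genes, and Cct7, which shares 214 exonic bases with Pradc1, was at -0.03 ± 0.08. The BAG proteins and genes of chaperone-assisted autophagy had a median of 0.04 over 12 genes, and Vcp, the segregase ATPase, was at 0.04 ± 0.08. Bag3, the autophagy partner of Hspb8 and named after its value was seen, was level at 203 ± 13.2 CPM in Female SNI and 199 ± 12.1 CPM in Female sham ganglia, and 220 ± 10.3 CPM in Male SNI and 208 ± 4.71 CPM in Male sham ganglia, a change of 0.06 ± 0.07. The heat shock factors and their regulators had a median of 0.05 over 5 genes, with Hsbp1, a factor-binding protein, at 0.12 ± 0.09. In the fit of all 12 libraries no gene of these 4 lists was called by edgeR or DESeq2, and limma-voom called 1 HSP90 gene lower. Without Male SNI replicate 2, where 11.5% of all genes were called, edgeR called 1 chaperonin higher and 1 HSP90 gene lower.

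The list of kinases for Hspb1 also holds p38 kinases, which activate Mapkapk2. It had 1 of 10 genes called higher and 0 lower, with a median of 0.07. Over all genes 3.78% were called higher, so that 1 call in so short a list is no result about the list. The called gene was Mapkapk2, the p38-activated kinase that phosphorylates Hspb1 directly, at 49.6 ± 6.63 CPM in Female SNI and 32.6 ± 5.75 CPM in Female sham ganglia, and 45.9 ± 5.68 CPM in Male SNI and 34.6 ± 5.26 CPM in Male sham ganglia. It rose by 0.51 ± 0.13 (adjusted p = 0.0265) and was called in 16 of 23 fits, with 0.45 to 0.53 and an adjusted p of 0.0543 to 0.0778 where the call was lost by leaving out Female SNI 2 or 3, Female sham 1 or 2, Male SNI 1, or Male sham 1 or 3. Mapk11, a p38 kinase and the most abundant of the list, was at -0.04 ± 0.18.

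Among partners and binding proteins of the family, Ywhag, a 14-3-3 protein and the most abundant of that list, was at 0.08 ± 0.09. Des, the muscle intermediate filament bound by Cryab, was not called averaged over the sexes, at 1.98 ± 0.59 (adjusted p = 0.0637 in edgeR). In females it averaged 0.783 ± 0.119 CPM after SNI and 0.665 ± 0.445 CPM after sham (SD, n = 3 each). In males, where 2.13% of all genes were called, it was called at 3.74 ± 0.85 (adjusted p = 0.0375 in edgeR). Its levels were 1.44 to 14.2 CPM in Male SNI and 0.230 to 0.669 CPM in Male sham libraries. Des was named after its value was seen, is also a mural cell marker, and skeletal muscle markers were high in Male SNI replicate 1. Without that library the male change was 2.40 ± 0.85 (adjusted p = 0.223), and without the 3 libraries that stood apart 1.60 ± 1.17. The call was also lost with limma-voom, with male libraries fitted alone, and without any Female SNI library, Female sham 3 or any Male sham library (adjusted p 0.0571 to 0.169).

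Lists of cell types and of axon injury set the member values in context, again for injury averaged over the sexes, where 3.78% of all genes were called higher and 6.52% in either direction. All 10 axon injury genes were called higher, with a median of 2.25, led by Npy (3.79 ± 0.17), Sprr1a (2.79 ± 0.12) and Atf3 (2.63 ± 0.09), and with Gap43, the most abundant, at 1.28 ± 0.14. These genes were chosen with earlier results of these data known. Of 14 macrophage markers 12 were called higher and 0 lower, with a median of 1.22, led by Trem2 (2.26 ± 0.45), C1qb (1.34 ± 0.23) and Cd163 (1.32 ± 0.25), and with Csf1r, the most abundant, at 1.28 ± 0.17. Of 12 pan-neuronal genes 2 were called higher, Stmn2 (0.51 ± 0.07) and Elavl3 (0.32 ± 0.08), and 1 lower, Rbfox3 (-0.35 ± 0.09), with a median of -0.17 and Uchl1 at -0.04 ± 0.11. At an unadjusted p below 0.05, where 18.4% of all genes passed, 2 of these 12 genes were higher and 5 lower. On library totals alone 1 was called higher and 3 lower, where 7.10% of all genes were called. The counts were 2 and 3 with DESeq2 (9.21% of all genes) and 3 and 6 with limma-voom (15.1%). Without both libraries apart on the first component they were 3 and 4 (12.1%). Lower calls outnumbered higher ones in these fits, each of which also called more of all genes than 6.52%. Elavl3 and Rbfox3 were each called in 15 of 23 fits. Elavl3 lost its call on library totals alone and without any of the 3 Female SNI libraries, Female sham 2 or 3, or Male sham 1 or 2 (adjusted p 0.056 to 0.0733). Rbfox3 lost it without Female SNI 2 or 3, Female sham 2 or 3, Male SNI 1 or any of the 3 Male sham libraries (adjusted p 0.0577 to 0.0935). Of 10 satellite glia markers 1 was called higher, Glul (0.55 ± 0.07), with a median of 0.15 and Apoe at 0.16 ± 0.13.

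In the fit of all 12 libraries edgeR called no gene among skeletal muscle, mural, Schwann cell, endothelial, adipocyte, and fibroblast and matrix markers. The 12 tested skeletal muscle markers had a median of 2.67, and 11 had an unadjusted p below 0.05, beside 18.4% of all genes. That median rested on Male SNI replicate 1, without which it was 0.78, with 0 of 12 called, and without the 3 libraries that stood apart it was 0.87, with 0 of 13 called. Without Male SNI replicate 2, in contrast, 11 of 13 were called higher, where 11.5% of all genes were called. Without Male SNI replicate 3, where 6.59% of all genes were called, 4 of 13 were. Male SNI replicate 1 remained in both of these fits. DESeq2 called 2 higher, and 9.21% of all genes, and edgeR with no filter 1 of 14, and 4.88% of all genes. The 9 mural markers had a median of 0.36, with 1 unadjusted and 1 called by DESeq2, and 1 of 10 was called higher with no filter, without Male SNI replicate 2 and without Male SNI replicate 3. Medians were 0.11 over 10 Schwann cell, 0.16 over 10 endothelial and -0.12 over 3 adipocyte markers, with none unadjusted and none called by DESeq2 or limma-voom, and 1 endothelial marker was called higher without the 3 libraries. The 8 fibroblast and matrix markers had a median of 0.13, with 1 unadjusted, and 1 was called higher by limma-voom and without Male SNI replicate 2. Abundant genes of these lists were Acta1 at 2.53 ± 0.78 (0.77 without Male SNI replicate 1), Rgs5 at -0.15 ± 0.13, Ly6c1 at -0.08 ± 0.12, Plin4 at -0.12 ± 0.10 and Col1a2 at -0.16 ± 0.25. Exons of Csf1r, Elavl3, Glul, Uchl1, Vcp, Dnaja1, Hspa1a, Hspa12a, Hspa8, Col3a1, Plin4, H19 and Tmed1 overlap those of another annotated gene. Their counts are uncertain to that extent, and the low Hspa1a shares 564 exonic bases.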

How the data were processed

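The authors deposited 1 file per library of raw counts per gene symbol, whole numbers with different totals, as the deposited headers and values show. Libraries were made with a QuantSeq 3′ mRNA kit, per the labels' protocols. Bowtie2, bedtools and the build mm10 appear without versions in the submitters' processing notes. The sources used here do not cover strand, multiply mapped reads or molecular identifiers, so limits on low counts cover counting error only. Each file held 23282 rows; 35 symbols, no member among them, stood on more than 1 row and were summed. Genes were kept by filterByExpr (minimum count 10), libraries scaled by TMM (0.914 to 1.07), and the 12 libraries were fitted together, 1 coefficient a group, in edgeR 4.0.16 (R 4.3.3; alternatives in DESeq2 1.42.0 and limma 3.58.1); two-sided quasi-likelihood F tests were adjusted by Benjamini-Hochberg over 15036 genes. Values after ± without SD are standard errors of the fit. Pairs of replicates differed by a chi-square of at least 8.63 per gene, so each counted as 1 sample. Positions came from GENCODE vM21, promoters from RefSeq.

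The members and lists were chosen with earlier results of these data known. All 6 members and 5 further family names are named; from each list, called genes (up to 3 per direction) and the most abundant gene; and 3 closest profiles per member. Some genes that this rule names are not reported here. Alternatives were scaling, filter, test, Rn45s, duplicate symbols, each library left out, a replicate block, the sexes fitted alone, and libraries that stood apart left out.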

Additional observations from a re-analysis of the deposited data

How the results depend on the processing

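Across the alternatives, 632 of the members' log2 changes kept their direction and their side of the threshold, 8 lost a call and 30 changed sign, with no called value among these 30. The averaged rise of Hspb1 was called in every alternative, with an adjusted p of 1.85e-10 to 0.00219. Counts of called genes for injury averaged over the sexes, 980 here, were 2274 with limma-voom, 1848 without both libraries apart on the first component, 1845 without the 3 libraries that stood apart (an alternative chosen after seeing the data) and 626 to 1766 when each library was left out. In females 435 became 777 with DESeq2, 1724 with limma-voom, 986 without both, 1194 without the 3, and 155 to 1176. In males 321 became 666 with DESeq2, 901 with limma-voom, 698 without both, 613 without the 3, and 137 to 601. Calls for the interaction were 2 without the 3 libraries and 0 in the other fits, and for sex in sham 14 with DESeq2 and 11 without the 3, against 6. The causes were not tested.

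Changes of sign were these, none of them called. Hspb2 averaged 0.21 with limma-voom, 0.03 without both libraries and -0.43 to 0.13 with each library left out, and was 0.13 in males with limma-voom. Cryab averaged -0.04 to 0.19 with each library left out. Without the 3 libraries Hspb6 was -0.05 averaged, -0.41 in males and -0.72 for the interaction, and Hspb7 -0.93, -1.11 and -0.35 in the same comparisons. Over all fits that left out 1 or more libraries, the averaged change was -0.05 to 0.50 for Hspb6 and -0.93 to 1.2 for Hspb7, Hspb7 in males was -1.11 to 1.95, and the interaction was -0.14 to 0.56 for Hspb1, -0.13 to 0.66 for Hspb8 and -0.35 to 2.23 for Hspb7. Hspb8 in females was 0.13 without both and without the 3, and in sham its sex difference was 0.04 in each. With each library left out, Hspb6 in males was -0.02 to 0.83 and its interaction -0.21 to 0.65. Hspb7 in females was -0.76 to 1.0 and its sex difference in sham -1.18 to 0.58. Hspb8 in females was -0.20 to 0.13 and its sex difference in sham -0.29 to 0.04, and the female change of Hspb1 was 0.70 to 0.96. In males alone Hspb1 was 1.21 (adjusted p = 0.0667).

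Same-numbered libraries correlated at -0.091 to 0.425 in their deviations from the group means, and different-numbered ones at -0.415 to 0.355. The highest value joined Female sham replicate 2 and Male SNI replicate 2, which both stood apart. These values cannot settle whether replicate numbers pair the samples. With the replicate block 936 genes were called for the averaged change (437 in females, 295 in males), Hspb1 stood at 1.01, and no call of a member changed. Depth limits Hspb7 and Hspb2, whose intervals span several fold.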
